A study of Arabidopsis thaliana with 16 samples.

Results

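The 47 genes described here are UDP-glycosyltransferases (UGTs) of Arabidopsis thaliana, taken as the probe sets of the Affymetrix ATH1 array that the platform annotation assigns to a single gene whose symbol starts with UGT and a digit. They are 47 of the 22746 probe sets of the array that are not controls. The annotation gives a single gene for 13513 of these probe sets, so a UGT that it does not name is not covered here. Another 3 probe sets list a UGT together with a second gene and were left out. Transcripts were measured in root tips of seedlings of the Columbia ecotype in 4 genotypes: wild type, wer-1 myb23-1 (wer myb23 below), cpc-1 try-82 (cpc try) and scm-2 (scm). Seedlings grew for 5 days on standard medium and then spent 1 hour on standard medium or on medium with 140 mM NaCl, called salt below. Each of the 8 groups had 2 arrays, each from a pool of about 30 root tips cut about 5 mm from the end. One label conflicts with this: mutant arrays with standard medium in the title and description have NaCl listed as their growth medium, and all cpc try and scm arrays have 4 days there before transfer. The title and description were used.

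UGTs move a sugar, most often glucose, from a UDP-sugar onto a small acceptor molecule. In plants the acceptors include hormones, phenylpropanoids, flavonoids, glucosinolate precursors, sterols and foreign compounds, and the sugar commonly makes the acceptor more soluble, less active or ready for storage in the vacuole. Many UGT genes lie next to close relatives in the genome. The mutants named above alter which cells of the root epidermis form hairs: WER and MYB23 are MYB proteins of non-hair cells, CPC and TRY are small MYB proteins that act against the non-hair fate, and SCM is a receptor-like kinase that relays position to epidermal cells.

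The values are MAS5 signals on a linear scale, and the trimmed mean signal was 250.03 on every array. Changes are on the scale of log2(signal + 4.10), which makes the changes of dim genes smaller than the ratio of their signals. Each gene was tested with limma in a fit to all 16 arrays, and a gene is said here to rise, fall or differ where its p-value, adjusted by the Benjamini-Hochberg method over the 17059 probe sets tested, was under 0.05. The labels call the 2 arrays of a group biological replicates, and their number limits the precision of every value. As a check of treatment, LEA4-5, a late embryogenesis abundant protein, lay between 2702 and 4368 on all salt arrays and between 25.7 and 89.1 on all standard arrays. EXPA7, an expansin of root hairs, lay between 4.96 and 41.7 on the arrays labelled cpc try and between 722 and 1171 on all others. TRY, the only mutated gene named by the annotation, was higher on the arrays labelled cpc try, at 481 to 870.0, than on the wild type arrays, at 9.98 to 49.7, and the labels give no lesion. Directions given for cpc try are those of the arrays with that label.

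Of the 47 UGT genes, 35 were bright enough to be tested and 12 were not. The dim genes, whose mean log2 value lay under the 25th percentile of all probe sets, were UGT71B6, UGT73C1, UGT73C2, UGT76E1, UGT76E11, UGT76E12, UGT78D1, UGT78D3, UGT84B1, UGT84B2, UGT85A3 and UGT85A5. Their mean signals over the 16 arrays ran from 2.91 for UGT73C1 to 24.0 for UGT76E12, and the highest single value was 70.7, for UGT76E11. UGT71B6, an abscisic acid glucosyltransferase, and UGT84B1, which glucosylates auxin, are among them and entered no main test. UGT76E12 had medians of 7.63 on standard medium and 32.0 on salt, and its arrays overlapped widely, at 1.11 to 32.7 and 4.05 to 63.0. Of the 35 tested genes, 23 changed in at least 1 of the 12 comparisons made, which is 65.7%, against 38.1% of all probe sets tested.

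Salt moved nearly the same number of UGT genes up as down. Averaged over the genotypes, 8 of the 35 rose and 9 fell, which together is 48.6%, against 26.5% of all probe sets tested (13.6% upward and 12.8% downward). The median log2 change of the 35 was 0.02, against -0.0024 over all probe sets tested. The average changes ran from a rise of 2.72 for UGT73C7 to a fall of 1.18 for UGT72E3. The rises, in order of size, were those of UGT73C7, UGT87A2, UGT76C1, UGT85A4, UGT71B1, UGT71C2, UGT73B5 and UGT73B4, and the falls those of UGT72E3, UGT84A4, UGT84A1, UGT74B1, UGT71C3, UGT71C1, UGT72E2, UGT80B1 and UGT74D1. For 10 of these 17 genes the arrays of the media were separate in each of the 4 genotypes, for 5 they overlapped in 1 genotype and for 2 (UGT80B1 and UGT84A1) in 2 genotypes. These genes were picked by their change on salt, so the separation adds no support of its own. The share of all probe sets so separated was not counted.

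**Figure D1:**
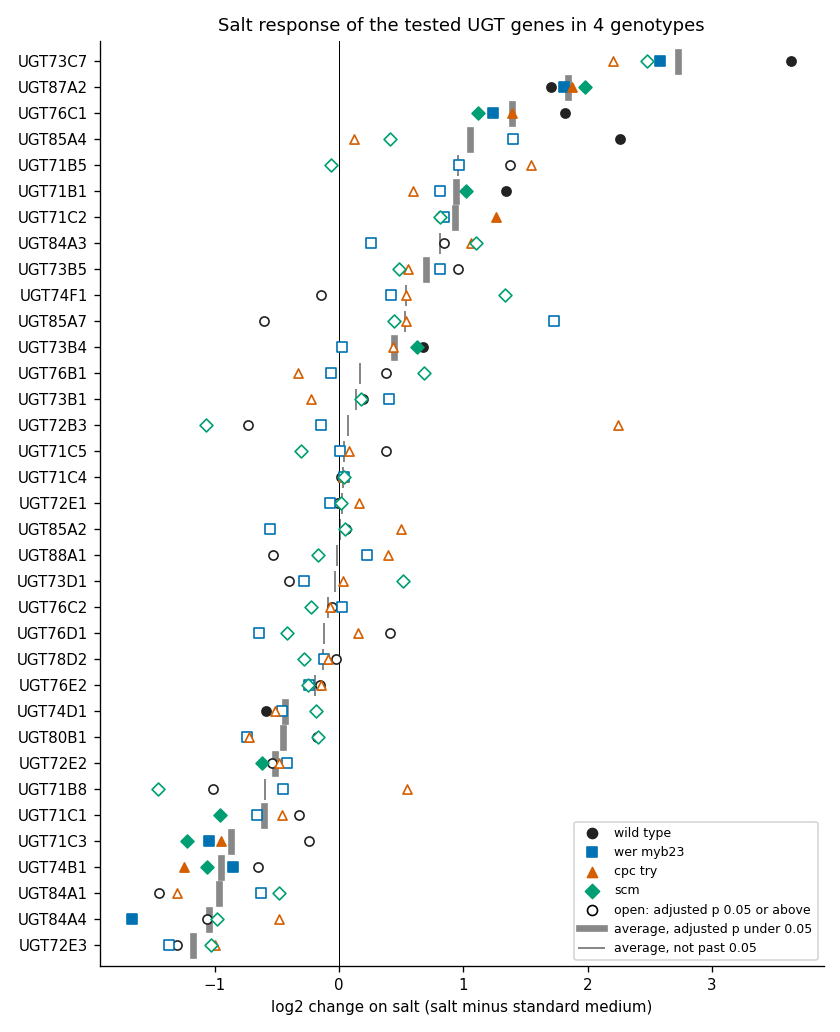
Log2 change on salt (horizontal axis, salt minus standard medium) of the 35 tested UGT genes, with a symbol for each genotype (2 arrays per medium) and a grey bar for the average of the 4 genotypes. Symbols are filled, and bars thick, where the limma adjusted p was under 0.05; the average ran from a rise of 2.72 for UGT73C7 to a fall of 1.18 for UGT72E3, and UGT87A2 and UGT76C1 are filled in all 4 genotypes.

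Within single genotypes fewer changes passed. In wild type 6 UGT genes rose and 1 fell, 20.0% of the 35, against 8.89% of all probe sets tested (4.99% upward and 3.89% downward). After median-centring of the arrays 6 rose and 3 fell. In wer myb23 3 rose and 3 fell, 17.1% against 11.0% (5.98% upward and 4.99% downward), and 2 rose and 4 fell after median-centring or quantile normalization. In cpc try 3 rose and 2 fell, 14.3% against 9.61% (5.42% upward and 4.19% downward). In scm 4 rose and 4 fell, 22.9% against 7.84% (4.72% upward and 3.12% downward). UGT87A2 and UGT76C1 rose in each of the 4 genotypes, and UGT74B1 and UGT71C3 fell in wer myb23, cpc try and scm. After median-centring or quantile normalization UGT76C1 did not pass in scm (limma adjusted p = 0.056 and 0.073). The shares of all probe sets were not counted anew after median-centring, quantile normalization or leaving out an array. Some counts hung on single arrays. The count of 6 in wer myb23 was 2 without its standard replicate 1 or its salt replicate 1 and 3 without its standard replicate 2. The count of 5 in cpc try was 3 without its standard replicate 1. The count of 8 in scm was 3 and 4 without its standard replicates 1 and 2, and 4 and 2 without its salt replicates 1 and 2.

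Other measures also differed between the media in some genotypes. The summed signal of the root hair markers EXPA7, EXPA18 and GH9C1, 3 of 12 markers named by the annotation, was 2575 to 3218 in wild type on standard medium and 1632 to 2626 on salt, with an overlap. In wer myb23 the sum was 2636 to 3180.4 and 1691 to 1960.1, with none, and in cpc try and scm the media overlapped. The sum hides differences between the markers. EXPA18 went from 1092 to 1445 on standard medium to 329 to 683 on salt in wild type. In scm it went from 995 to 1232 to 501 to 876. EXPA7 and GH9C1 overlapped between the media in wild type and scm. The 25S ribosomal RNA control was higher on salt, at 5123 to 10298 against 2012 to 5229 on standard medium, with an overlap only within scm. The GAPDH control, as log2 of its 3′ over its 5′ probe sets, spanned 1.45 to 2.43 on standard medium and 1.46 to 2.79 on salt. Their part in the UGT changes was not tested.

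UGT87A2 (AT2G30140), linked to flowering time and to abiotic stress in Arabidopsis, responded to salt in every genotype and stood apart in cpc try. On standard medium its signals were 162 and 191 in wild type, 172 and 153 in wer myb23, 213 and 154 in scm, and 603 and 604 in cpc try. On salt they were 514 and 661 in wild type, 593 and 562 in wer myb23, 608 and 864 in scm, and 2172 and 2279.7 in cpc try. Within every genotype both salt arrays lay above both standard arrays, and the standard arrays of cpc try lay within the range of the salt arrays of the other genotypes. The rise on salt was 1.71 ± 0.20 in wild type, 1.98 ± 0.20 in scm, 1.88 ± 0.20 in cpc try and 1.81 ± 0.20 in wer myb23 (log2, SE, n = 2 arrays per medium), with limma adjusted p from 7.7e-07 to 6.1e-06. On average the gene rose 3.58-fold (limma adjusted p = 9.0e-12), higher on salt in 4 of 4 genotypes. Its rise in cpc try differed from that in wild type by 0.17 ± 0.29 (SE), short of the threshold (limma adjusted p = 0.92).

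Among the enzymes of hormone conjugation, a cytokinin glucosyltransferase rose and an auxin glucosyltransferase fell. UGT76C1 (AT5G05870), which attaches glucose to the ring of cytokinins, had signals of 30.7 to 60.6 on the 8 standard arrays (median 49.3) and of 107 to 152 on the 8 salt arrays (median 133). The media did not overlap, and the average rise was 1.39 ± 0.17 (log2, SE, limma adjusted p = 1.9e-06). By genotype UGT76C1 rose by 1.82 in wild type, 1.39 in cpc try, 1.24 in wer myb23 and 1.12 in scm, each with an SE of 0.34. The wild type call held without any single array. In cpc try it was lost without standard replicate 1 or salt replicate 1 of cpc try (limma adjusted p = 0.11 and 0.074), and in wer myb23 without any array of that genotype (0.081 to 0.14). In scm it was the nearest to the threshold (limma adjusted p = 0.049), and was lost without any array of scm (0.080 to 0.32), without any of wer myb23 (0.062 to 0.068) and without salt replicate 1 of cpc try (0.051). With dim probe sets kept in the test, the calls in wer myb23 and scm were lost (limma adjusted p = 0.051 and 0.11). UGT76C2 (AT5G05860), its neighbour in the genome with the same kind of activity, had signals of 97.1 to 153 on standard medium and of 85.3 to 141 on salt, which overlapped throughout. Its average change was -0.08 ± 0.14 (SE, limma adjusted p = 0.72).

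UGT74D1 (AT2G31750), a glucosyltransferase of auxin and its oxidised form, had signals of 675 to 973 on standard medium (median 863) and of 463 to 884 on salt (median 616). The arrays of the media overlapped in scm but in no other genotype. The gene fell by 0.44 ± 0.09 on average (log2, SE, limma adjusted p = 0.00059) and, among single genotypes, by 0.59 ± 0.17 in wild type, a call lost without standard replicates 1 or 2 or salt replicate 2 of wild type (limma adjusted p = 0.23, 0.065 and 0.28). Among genes that act on abscisic acid, UGT71C5 (AT1G07240) stood at 134 to 190.4 on standard medium and at 104 to 261 on salt, and its average change of 0.04 ± 0.13 (SE) did not pass. UGT71B8 (AT3G21800), a close relative of UGT71B6, was dim, between 3.54 and 48.7 over all arrays, and did not pass in any comparison.

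Of the enzymes that act on salicylic acid and related defence compounds, 1 fell. UGT71C3 (AT1G07260), which glucosylates methyl salicylate, had signals of 137 to 199.8 on standard medium (median 159.7) and of 51.8 to 138 on salt (median 86.3). In wild type the fall was small, from 139.6 and 162 to 116 and 138, and did not pass (limma adjusted p = 0.70). UGT71C3 fell by 1.05 ± 0.28 in wer myb23, by 0.95 ± 0.28 in cpc try and by 1.23 ± 0.28 in scm (log2, SE, n = 2 arrays per medium). The test of the difference from wild type gave -0.81, -0.70 and -0.98, none past the threshold (limma adjusted p = 0.95, 0.64 and 1.00). Its fall over all genotypes was 0.87 ± 0.14 (limma adjusted p = 6.2e-05). The wer myb23 call was lost without standard replicates 1 or 2 or salt replicate 1 of that genotype (limma adjusted p = 0.083, 0.11 and 0.26), and the cpc try call without any cpc try array (0.061 to 0.24). In scm it was lost without standard replicates 1 or 2 or salt replicate 1 (0.058, 0.053 and 0.067). UGT76B1 (AT3G11340), which glucosylates isoleucic acid and salicylic acid, was at 984 to 1476 on standard medium and at 595 to 1738 on salt, with an average change of 0.17 ± 0.12 (SE, limma adjusted p = 0.35). UGT74F1 (AT2G43840), which makes salicylic acid glucoside, lay between 7.20 and 85.5 and did not pass, and neither did UGT76D1 (AT2G26480), an enzyme of dihydroxybenzoic acids.

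UGT74B1 (AT1G24100), the S-glucosyltransferase of glucosinolate synthesis, fell on salt. Its signals were 219 to 395 on the standard arrays (median 320.1) and 127 to 189 on the salt arrays (median 173), so every salt array lay below every standard array. The fall was 0.95 ± 0.12 on average (log2, SE, limma adjusted p = 3.1e-06), 1.25 ± 0.24 in cpc try, 1.06 ± 0.24 in scm and 0.85 ± 0.24 in wer myb23. In wild type the signals went from 314 and 219 to 146 and 187, a change of -0.65 ± 0.24 that did not pass (limma adjusted p = 0.11). The wer myb23 call was lost without any array of that genotype (limma adjusted p = 0.053 to 0.21), and the scm call without standard replicate 1 or salt replicate 2 of scm (0.086 and 0.18).

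**Figure D2:**
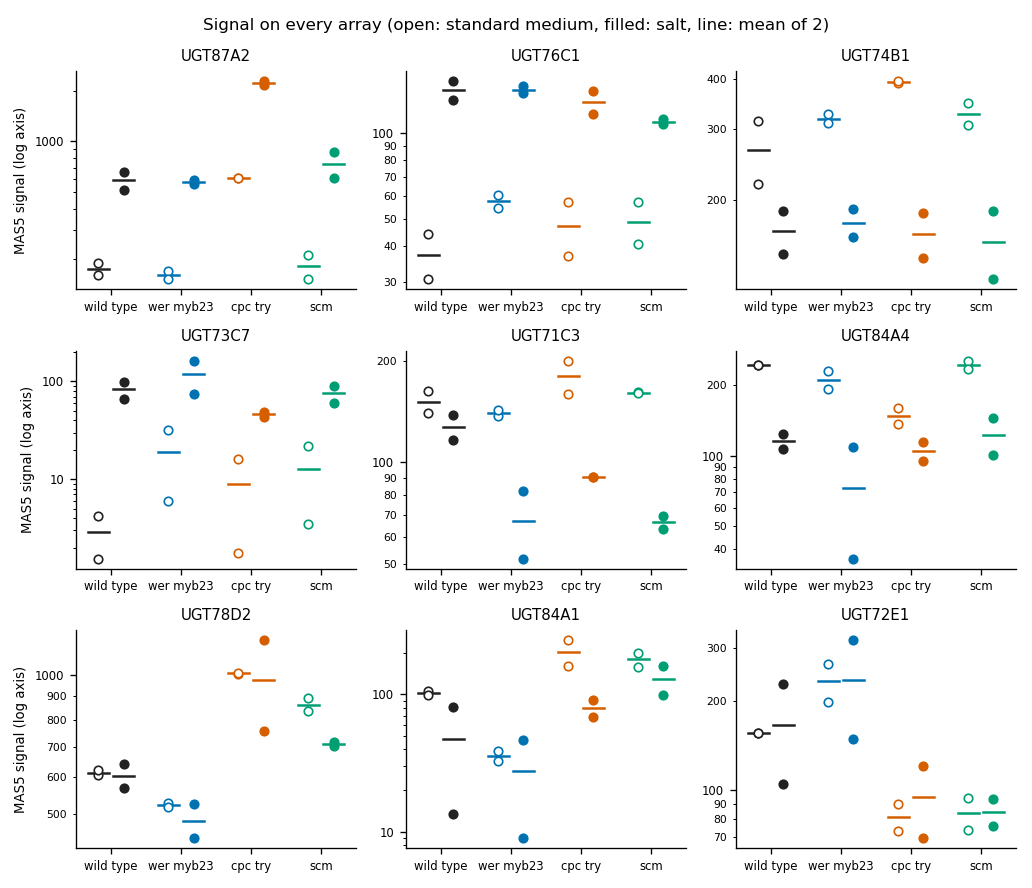
MAS5 signal (vertical log axis) of 9 UGT genes on every array, by genotype, with open symbols for standard medium, filled symbols for salt and a line at the mean of the 2 arrays. UGT87A2 reached 2172 and 2279.7 in cpc try on salt, UGT76C1 rose and UGT74B1 fell with no overlap of the media, and UGT78D2 and UGT84A1 were lowest in wer myb23 on standard medium.

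Among the enzymes of phenylpropanoids, those of monolignols fell or did not pass. UGT72E2 (AT5G66690), which glucosylates coniferyl and sinapyl alcohol, had signals of 497 to 989 on standard medium (median 755) and of 373 to 679 on salt (median 526), with no overlap within any genotype. UGT72E2 fell by 0.51 ± 0.09 on average (log2, SE, limma adjusted p = 0.00014). UGT72E3 (AT5G26310), its relative with the same substrates, fell by 1.18 ± 0.31 (SE, limma adjusted p = 0.0074), from a median of 87.5 to a median of 36.5, with an overlap only in cpc try, where the standard arrays were 32.0 and 92.1 and the salt arrays 68.0 and 8.03. UGT72E1 (AT3G50740), which prefers the aldehydes, had medians of 125 and 113 and an average change of 0.02 ± 0.19 (SE). In scm alone among the genotypes the fall of UGT72E2 passed, by 0.62 ± 0.18 (SE, limma adjusted p = 0.033), and the call was lost without standard replicate 2 or salt replicates 1 or 2 of scm (0.36, 0.26 and 0.089).

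The UGT84A enzymes join glucose to hydroxycinnamic acids as an ester. UGT84A4 (AT4G15500) had signals of 136 to 255 on standard medium (median 232) and of 36.5 to 145 on salt (median 108), with no overlap within a genotype, and fell by 1.05 ± 0.17 on average (log2, SE, limma adjusted p = 7.9e-05). The largest fall was in wer myb23, by 1.66 ± 0.34, where the salt arrays were 109 and 36.5, and without the dimmer array, salt replicate 2, it was 0.92 (limma adjusted p = 0.075). UGT84A1 (AT4G15480) had medians of 132 and 75.1, overlapped between the media in wer myb23 and scm, and fell by 0.97 ± 0.30 (SE, limma adjusted p = 0.019). That call was lost without salt replicate 2 of wild type, salt replicate 2 of wer myb23, standard replicate 2 of cpc try or salt replicate 1 of scm (limma adjusted p = 0.052 to 0.058). UGT84A3 (AT4G15490), which lies between them, had medians of 43.2 and 54.6 and a change of 0.82 ± 0.34 (SE, limma adjusted p = 0.087).

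UGT73C7 (AT3G53160), which acts on p-coumaric and ferulic acid, had the largest average rise of the tested UGT genes. Its standard arrays lay at 1.55 to 31.6 (median 5.12) and its salt arrays at 43.7 to 163 (median 69.9), so the media did not overlap. On the log2 scale the rise was 2.72 ± 0.41 (SE, limma adjusted p = 2.8e-05), and 1.86 with 16 in place of 4.10 added to the signal, since the standard values are close to the amount added. It rose in wild type by 3.64 ± 0.82 and in wer myb23 by 2.58 ± 0.82. The wild type call was lost without its salt replicate 2 (limma adjusted p = 0.071). The wer myb23 call (limma adjusted p = 0.047) was lost without standard replicate 1 or either salt array of that genotype (0.40, 0.40 and 0.072), and without any salt array of the other 3 genotypes (0.053 to 0.073). That call was also lost after median-centring or quantile normalization (limma adjusted p = 0.055 and 0.072). The same held with dim probe sets kept or without the trend in the spread (0.057 and 0.074).

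Of the remaining genes with a change on salt, UGT73B4, UGT73B5, UGT71B1 and UGT85A4 rose. UGT73B4 (AT2G15490), linked to pathogen responses and detoxification, had signals of 634 to 992 on standard medium (median 800.4) and of 845 to 1222 on salt (median 1044). UGT73B4 rose by 0.44 ± 0.07 on average (log2, SE, limma adjusted p = 9.7e-05), by 0.67 ± 0.15 in wild type and by 0.63 ± 0.15 in scm, while in wer myb23 the salt arrays (845 and 989) lay among the standard ones (814 and 992). The scm call was lost without standard replicate 2 or salt replicate 2 of scm (limma adjusted p = 0.087 and 0.11). UGT73B5 (AT2G15480), linked to redox status during pathogen attack, rose by 0.70 ± 0.16 (SE, limma adjusted p = 0.0022), from a median of 238 to a median of 386. UGT71B1 (AT3G21750) rose by 0.94 ± 0.14 (SE, limma adjusted p = 2.3e-05), with medians of 102 and 223 and no overlap within a genotype. UGT71B1 also rose in wild type by 1.34 ± 0.28 and in scm by 1.02 ± 0.28, the last not without any single scm array (limma adjusted p = 0.12 to 0.15). UGT85A4 (AT1G78270) rose by 1.05 ± 0.34 (SE, limma adjusted p = 0.024), from a median of 31.2 to 58.6, and its wild type standard arrays differed widely, at 32.2 and 2.76.

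The UGT85A4 call rested on single arrays. On average it was lost without standard replicate 2 of wild type, either replicate 2 of wer myb23 or salt replicate 2 of cpc try (limma adjusted p = 0.053 to 0.069). In wild type the rise of UGT85A4 was 2.26 ± 0.67 (SE, limma adjusted p = 0.038), and 1.06 without standard replicate 2 (limma adjusted p = 0.43). It was also lost without either wild type salt array (0.084 and 0.19), either scm salt array (0.052 and 0.053) or salt replicate 2 of wer myb23 (0.052).

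UGT71C2 (AT2G29740) rose and UGT71C1 (AT2G29750), a glucosyltransferase of flavonoids and lignans, fell, although the genes are neighbours. UGT71C2 had signals of 51.9 to 244 on standard medium (median 149.7) and of 148 to 392 on salt (median 249), and rose by 0.93 ± 0.17 (log2, SE, limma adjusted p = 0.00019). In cpc try it rose by 1.27 ± 0.33, a call lost without standard replicate 1 or salt replicate 1 of cpc try (limma adjusted p = 0.28 and 0.17). UGT71C1 went from 374 to 748 (median 537) to 243 to 486 (median 352), and fell by 0.60 ± 0.12 (SE, limma adjusted p = 0.00079). For both genes the media did not overlap within a genotype. In scm UGT71C1 fell by 0.96 ± 0.25, with salt arrays of 485 and 254, and without the dimmer, salt replicate 2, the fall was 0.50 (limma adjusted p = 0.45); without standard replicate 1 the adjusted p was 0.18. UGT80B1 (AT1G43620), which glucosylates sterols, fell by 0.45 ± 0.15 (SE, limma adjusted p = 0.032), from a median of 145 to a median of 105. That call was lost without standard replicate 1 or salt replicate 1 of wild type or of wer myb23, standard replicate 1 of cpc try, or standard replicate 2 or salt replicate 1 of scm (limma adjusted p = 0.063 to 0.10).

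The 12 tested genes that passed in no comparison included UGT71B8, UGT71C5, UGT74F1, UGT76B1, UGT76C2 and UGT76D1 above. Of the others, UGT71B5 (AT4G15280) came closest in the average over genotypes, at 0.96 ± 0.40 (log2, SE, limma adjusted p = 0.085), with signals of 3.35 to 37.0 on standard medium and of 22.1 to 66.3 on salt. UGT73B1 (AT4G34138) had medians of 154 and 164, UGT76E2 (AT5G59590) of 82.4 and 71.4 and UGT88A1 of 64.4 and 65.3, with average changes of 0.14 ± 0.13, -0.20 ± 0.18 and -0.02 ± 0.19 (SE). In cpc try alone UGT72B3 (AT1G01420) was at 2.25 ± 0.73 on salt (limma adjusted p = 0.058). UGT72B3 and UGT85A7 (AT1G22340) were dimmer, with medians of 32.9 and 26.2 and of 21.9 and 35.5 and average changes of 0.08 ± 0.36 and 0.53 ± 0.46 (SE). For all of these the arrays of the media overlapped in at least 1 genotype.

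The salt response of no UGT gene was shown to differ between a mutant and wild type. Of the 35 genes 0 passed in limma for wer myb23, cpc try or scm, and 2, 3 and 1 had an unadjusted p under 0.05. Over all probe sets tested the shares that passed after adjustment were 0.00586%, 0.0176% and 0.00%. Their unadjusted shares were not counted, so the counts of 2, 3 and 1 are no sign of a difference. The smallest p-values belonged to UGT73B4 in wer myb23, where the difference from wild type was -0.65 ± 0.21 (log2, SE, limma adjusted p = 0.87), and to UGT72B3 in cpc try, where it was 2.98 ± 1.03 (limma adjusted p = 0.40).

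The genotype comparisons asked whether UGT transcripts follow the pattern of the epidermis, over both media. Against wild type, 4 UGT genes were higher and 1 lower in cpc try, which is 14.3% of the 35, against 11.6% of all probe sets tested (4.71% higher and 6.91% lower), a share near the background. In wer myb23 and in scm 0 of 35 passed in limma (0.510% and 0.141% of all probe sets), and 8 and 9 genes had an unadjusted p under 0.05. The unadjusted share over all probe sets was not counted, so these 8 and 9 have no background to be read against. Between wer myb23 and cpc try, 6 were higher and 4 lower in wer myb23, 28.6% against 14.0% (8.14% higher and 5.86% lower). The comparisons of cpc try with wild type and with wer myb23 share the cpc try arrays. After median-centring, the median of all probe sets in cpc try against wild type was higher by 0.13 than before it. The shares of all probe sets were not counted anew without single arrays. Without salt replicate 1 of cpc try, 9 genes passed against wild type, and those added were UGT71C2, UGT72E1, UGT72E3, UGT73D1 and UGT76B1, all lower in cpc try. Without salt replicate 1 of wild type, 1 gene, UGT84A1, was higher in scm (1.83, limma adjusted p = 0.042).

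The summed signal of the 3 root hair markers was 32.7 to 88.2 on the cpc try arrays and 1632 to 3218 on all others, and JKD, the only other of the listed cell type markers that could be named, was at 59.3 to 127 and 15.9 to 98.6. The defining hair markers were thus near the bottom of the scale in cpc try. In RNA of pooled root tips fewer cells of a type and less RNA per cell cannot be told apart, and the part of the cell types in these results was not tested.

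UGT87A2 had the largest difference from wild type in cpc try, higher by 1.84 ± 0.14 (log2, SE, n = 4 arrays per genotype, limma adjusted p = 9.0e-09), with no overlap on either medium. In wer myb23 it was lower than in cpc try by 1.91 ± 0.14 (limma adjusted p = 4.9e-09). Against wild type it was at -0.06 in wer myb23 and 0.18 in scm, and neither passed. The cpc try level on standard medium, 603 and 604, lay above every standard array of the other genotypes. On salt the arrays were at 514 and 661 in wild type and at 608 and 864 in scm. Those of wer myb23, at 593 and 562, stayed just below that level.

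UGT78D2 (AT5G17050), the flavonoid 3-O-glucosyltransferase, did not respond detectably to salt and differed between genotypes. On standard medium its signals were 606 and 621 in wild type, 527 and 518 in wer myb23, 1009.9 and 1011 in cpc try, and 892 and 836 in scm. On salt they were 569 and 639.8 in wild type, 523 and 442 in wer myb23, 758 and 1193 in cpc try, and 714 and 702 in scm. On each medium wer myb23 was lowest, wild type next, scm and cpc try higher, with scm and cpc try overlapping no wild type array. The gene was higher in cpc try than in wild type by 0.68 ± 0.13 (log2, SE, limma adjusted p = 0.00089) and lower in wer myb23 than in cpc try by 0.96 ± 0.13 (limma adjusted p = 1.5e-05). The values against wild type in wer myb23 and scm, -0.28 and 0.36, did not pass (limma adjusted p = 0.37 and 0.29). CHIL (AT5G05270), a chalcone isomerase-like protein of the same pathway, was higher in cpc try by 0.62 ± 0.18 (SE, limma adjusted p = 0.031). DFR, dihydroflavonol reductase and the only other tested flavonoid gene, was at -0.21 ± 0.50 (SE, limma adjusted p = 0.85).

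The UGT84A and UGT85A families also held genes higher in cpc try. UGT84A3 had signals of 16.7 and 47.2 in wild type and 87.3 and 87.6 in cpc try on standard medium, and of 63.7 and 46.8 and of 203 and 171 on salt. It was higher in cpc try by 1.59 ± 0.48 (log2, SE, limma adjusted p = 0.035), a call lost without any cpc try array, without either salt array of wild type or without its standard replicate 1 (0.054 to 0.14). UGT85A2 (AT1G22360) had signals of 418 and 545 in wild type and 675 and 611 in cpc try on standard medium, and of 490.4 and 500.4 and of 862 and 955 on salt, and was higher in cpc try by 0.65 ± 0.13 (SE, limma adjusted p = 0.0015). It was lower in wer myb23 than in cpc try by 0.41 ± 0.13 (SE, limma adjusted p = 0.034), with an overlap on standard medium, and that call was lost without any array of wer myb23 except salt replicate 2 or of cpc try except salt replicate 1 (0.056 to 0.20). UGT84A1 was lower in wer myb23 than in cpc try by 2.02 ± 0.42 (SE, limma adjusted p = 0.0019), with standard arrays of 38.9 and 32.9 against 162 and 248, and salt arrays of 46.7 and 8.97 against 68.7 and 90.4. Its wild type arrays lay between on standard medium, at 106 and 98.7, and at 81.5 and 13.6 on salt. The scm arrays of UGT84A1 were at 201 and 158 on standard medium and at 98.5 and 161 on salt. Its difference between cpc try and wild type, 1.02, did not pass (limma adjusted p = 0.13).

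UGT71C4 (AT1G07250) was the gene lower in cpc try than in wild type. Its wild type signals were 804 and 448 on standard medium and 761 and 483 on salt, and its cpc try signals 363 and 344 and 409 and 317, with no overlap on either medium. It was lower by 0.75 ± 0.18 (log2, SE, limma adjusted p = 0.0074), and without standard replicate 1 of wild type by 0.54 (limma adjusted p = 0.059). Its salt values were between 0.01 and 0.04 in the 4 genotypes.

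Of the genes higher in wer myb23 than in cpc try, UGT72E1 had the largest difference. Its wer myb23 signals were 267 and 199 on standard medium and 149 and 319.6 on salt, against 90.1 and 73.2 and 121 and 69.1 in cpc try, with no overlap on either medium. UGT72E1 was higher by 1.34 ± 0.27 (log2, SE, limma adjusted p = 0.0013). In scm it was at 73.7 and 94.3 on standard medium and 93.5 and 75.9 on salt, near the cpc try level, and against wild type it was at -0.82 in cpc try (limma adjusted p = 0.051) and -0.86 in scm (limma adjusted p = 0.24). UGT72E2, of the same group, was higher in wer myb23 than in cpc try by 0.61 ± 0.13 (SE, limma adjusted p = 0.0019), at 539 to 819 against 373 to 591.

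The other genes higher in wer myb23 were UGT71C2, by 1.22 ± 0.23 (log2, SE, limma adjusted p = 0.00096), UGT73D1 (AT3G53150), by 1.02 ± 0.29 (limma adjusted p = 0.022), UGT71B1, by 0.75 ± 0.20 (limma adjusted p = 0.013), and UGT71C1, by 0.65 ± 0.17 (limma adjusted p = 0.014). The arrays overlapped on 1 medium for UGT73D1 and on none for the rest. Some of these calls rested on single arrays. That of UGT73D1 was lost without standard replicate 1 or salt replicate 2 of either genotype (limma adjusted p = 0.099 to 0.13). That of UGT71B1 was lost without either replicate 1 of wer myb23 or salt replicate 1 of cpc try (0.050 to 0.082), and that of UGT71C1 without either replicate 2 of wer myb23 or either replicate 1 of cpc try (0.061 to 0.076).

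**Figure D3:**
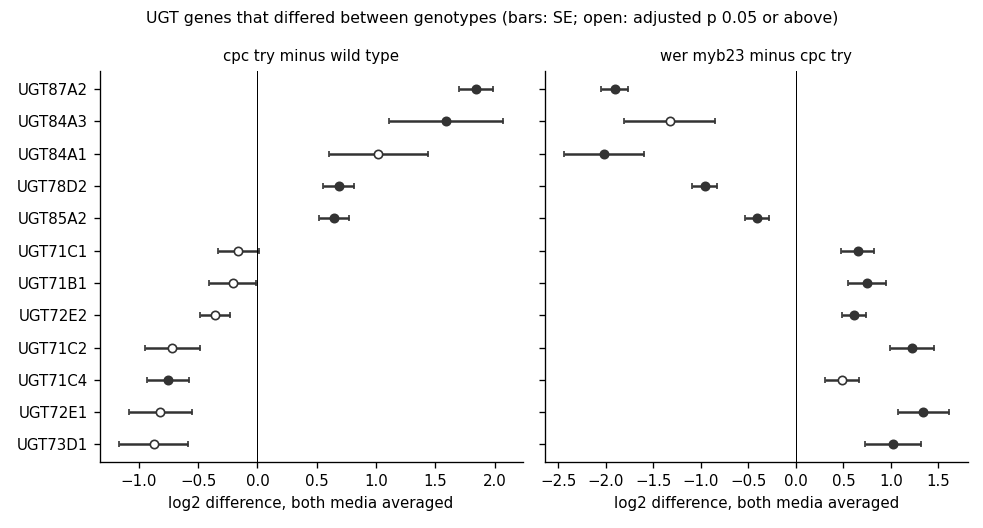
Log2 difference between genotypes, averaged over both media (horizontal axes, cpc try minus wild type at the left and wer myb23 minus cpc try at the right), of the 12 UGT genes that passed in at least 1 of these comparisons. Points are estimates from 4 arrays per genotype, bars are SE and filled points had a limma adjusted p under 0.05; UGT87A2 stood at 1.84 and -1.91, and both panels share the cpc try arrays.

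Position in the genome was not used to choose the genes, and whether neighbours share a response was not tested. In the gene order of RefSeq's TAIR10.1 annotation, 31 of the 47 genes fell into 13 runs in which each member lay at most 3 protein-coding genes from the next. Of these runs 8 held at least 2 tested genes. In 2 of them the genes that changed on salt moved the same way: UGT73B4 and UGT73B5 both rose, and UGT84A1 and UGT84A4 both fell. UGT71C1 and UGT71C2 moved in opposite directions. In another 4 runs a single gene changed: UGT76C1 beside UGT76C2, UGT73C7 beside UGT73D1, UGT71C3 beside UGT71C4 and UGT71C5, and UGT71B1 in the run with UGT71B8. UGT73D1 had signals of 37.8 to 140.3 on standard medium and 33.2 to 147 on salt, where UGT73C7 went from a median of 5.12 to one of 69.9. Probes of close relatives can bind each other's RNA, and the part of this in the values was not tested.

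**Figure D4:**
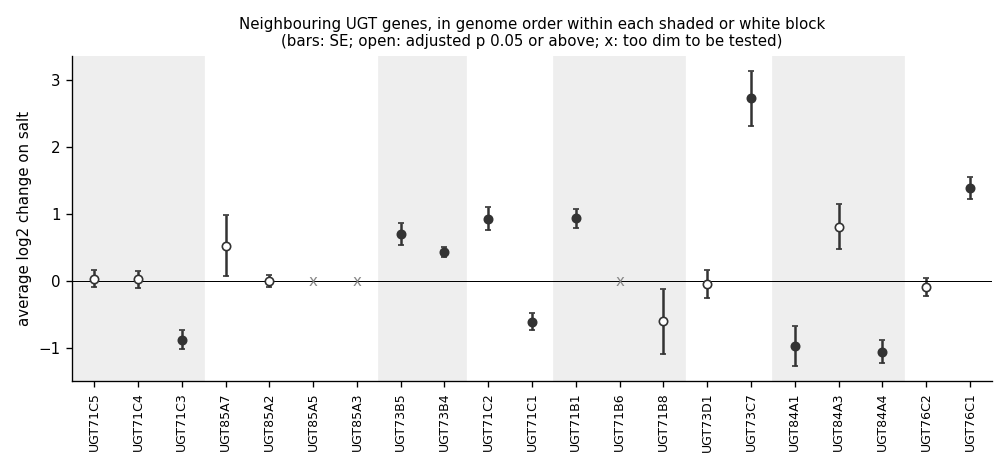
Average log2 change on salt (vertical axis, 4 genotypes, bars are SE) of UGT genes in the 8 runs of neighbouring genes with at least 2 tested members, in genome order, with an alternating background for each run. Filled points had a limma adjusted p under 0.05 and an x marks a gene too dim to be tested; UGT73C7 rose by 2.72 beside UGT73D1 at -0.03, and UGT71C2 rose by 0.93 beside UGT71C1, which fell by 0.60.

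By family number, 3 of 5 tested genes of family 73 rose on average and 0 fell, and 2 of 4 in family 72, 2 of 3 in family 74 and 2 of 3 in family 84 fell and 0 rose. In family 71 2 rose and 2 fell among 8 tested, and in families 76 and 85 1 of 5 and 1 of 3 rose. Of the families with a single tested gene, 87 rose, 80 fell, and 78 and 88 did not pass. The families hold few tested genes, 13.6% of all probe sets rose and 12.8% fell, and no family was tested as a group.

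Only a few genes of the pathways that UGTs act in could be named, so their lists say little. Of 20 flavonoid genes 2 were tested: CHIL fell on salt by 0.58 ± 0.13 (log2, SE, limma adjusted p = 0.0017), and DFR was at -0.95 ± 0.36 (limma adjusted p = 0.055). Of 25 phenylpropanoid and monolignol genes 3 were tested and 1 rose, CCR2 (AT1G80820), a cinnamoyl-CoA reductase, by 1.41 ± 0.19 (limma adjusted p = 5.0e-06), in contrast to the falls of UGT72E2 and UGT72E3. Of 23 auxin conjugation genes 3 were tested and 1 rose, GH3.17 (AT1G28130), which joins auxin to glutamate, by 0.43 ± 0.12 (limma adjusted p = 0.012). The medians of these lists on salt were -0.76, 0.16 and 0.04, against -0.0024 over all probe sets. The single tested genes for cytokinin (ARR15) and UDP-sugar supply (USP) did not pass on salt, at -0.18 and -0.15. The lists for glucosinolates, abscisic acid metabolism, brassinosteroids, sterols and vacuolar carriers had 0 tested genes. All 5 tested genes of dehydration and abscisic acid responses rose on salt, with a median of 2.55, among them LEA4-5 by 5.93 ± 0.11 and LTI30, a dehydrin, by 1.90 ± 0.09 (SE). In cpc try against wild type CHIL and LEA4-5 (0.77 ± 0.15, limma adjusted p = 0.0012) were higher, and the other 13 tested genes of these lists did not pass.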

How the data were processed

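Total RNA of root tips was hybridised to 16 ATH1 arrays, 2 per genotype and medium. The deposited table holds linear intensity values that the authors derived with MAS5, per the submitters' processing notes, with no version or settings given in the sources used here. Values became log2(signal + 4.10), 4.10 being the 10th percentile of the table. The 64 control probe sets and those with a mean log2 value under the 25th percentile were left out, which left 17059. limma 3.58.1 in R 4.3.3 fitted a mean for each of the 8 groups, with spreads moderated by eBayes and following a trend (8 residual and 12.0 prior degrees of freedom), and 12 contrasts were tested two-sided. Calls are at a Benjamini-Hochberg adjusted p under 0.05, over all probe sets of a contrast. The fit was tested on simulated data.

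The members, gene lists, tests and the rule for named genes were chosen with earlier results of these data known. The rule names every member, describes those called in a contrast, and names up to 2 called genes of each list. Genes were named from the platform annotation, and lists also through RefSeq symbols and synonyms; CHI and FMO, which name other genes there, were left out. Alternatives were scaling (median-centring, quantile), the added constant, the filter, the trend, the arrays in the fit, a replicate block and leaving out each array. The replicate numbers were not treated as pairs: the replicate differences of 2 groups correlated with r from -0.034 to 0.052 over 28 pairs of groups.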

Additional observations from a re-analysis of the deposited data

Results flagged for a closer look

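For 4 of the 35 tested UGT genes, every salt array lay above the standard arrays in one genotype and below them in another. UGT72B3 (AT1G01420) went from 16.4 and 2.46 to 41.8 and 61.8 in cpc try, from 57.0 and 30.3 to 19.4 and 28.3 in wild type, and from 35.6 and 42.9 to 25.6 and 10.2 in scm. The response in cpc try minus that in wild type was 2.98 on the log2 scale (limma adjusted p = 0.40), and the response in scm minus that in cpc try was -3.31, a difference that was not tested. UGT73D1 went from 130.0 and 102 to 80.7 and 92.0 in wild type and from 80.4 and 93.6 to 147 and 107 in scm, a difference of 0.91 (limma adjusted p = 1.00). UGT85A2 went from 675 and 716 to 394 and 565 in wer myb23 and from 675 and 611 to 862 and 955 in cpc try, a difference of 1.05 that was not tested. UGT88A1 (AT3G16520) went from 63.2 and 87.8 to 52.5 and 48.0 in wild type and from 65.7 and 49.4 to 69.7 and 83.2 in cpc try, a difference of 0.93 (limma adjusted p = 0.65). Among the 12 dim genes, whose values have little order, UGT71B6, UGT76E1 and UGT84B1 showed the same kind of separation and were not tested. With 2 arrays per medium, arrays that do not overlap are common. The share of all probe sets with opposite separations was not counted, so the 4 genes cannot be called unusual.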

How the results depend on the processing

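Of the 58 calls of a UGT gene in a comparison, 31 held under every alternative run, 27 were lost under at least 1, and 0 changed direction. Of the 17 genes called in the average salt response, 14 held throughout; the exceptions were UGT80B1, UGT84A1 and UGT85A4. The counts that follow have no share over all probe sets beside them and show only how stable the calls were. With only the wer myb23 arrays in the fit, 11 UGT genes changed on salt there in place of 6. Without the trend in the spread, 5 in place of 8 changed in scm, and 3 in place of 5 differed between cpc try and wild type. Without the filter, 1 dim gene, UGT84B1, was lower in wer myb23 than in wild type. Leaving out each array gave 2 to 7 genes for salt in wer myb23, 3 to 5 in cpc try, 2 to 9 in scm, 4 to 9 for cpc try against wild type and 0 to 1 for scm against wild type. With the replicate block the count for salt in wild type was 9 in place of 7 and the average count was 17; the only call lost with it was that of UGT76C1 in scm (limma adjusted p = 0.054). The other causes were not tested. The number of arrays limits all values, and dim genes most.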
